A study of Homo sapiens with 8 samples.

Results

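The genes described here encode products that breast and apocrine epithelium releases or carries on its apical surface. They were chosen by symbol: PIP, SCGB2A2, SCGB2A1, SCGB1D2, AZGP1, MUC1, MUCL1, LTF, LCN2 and CLU, 10 of the 20531 genes listed in each deposited table. The choice was made with earlier results of these data known. All 10 reached a value of 10 in at least 1 of the 8 libraries, the level asked of every gene, as did 14429 genes in all. RNA with a poly(A) tail had been sequenced from 8 cultures of established breast carcinoma cell lines with amplified HER2, 1 culture per group. SKBR-3 is negative for the estrogen receptor and the progesterone receptor. BT474m1, derived from BT474, is positive for both receptors. Each line received DMSO, 300 nM lapatinib, 300 nM JQ1 or the combination, for 48 h per the labels (the study's methods give a shorter time for its lines in general, and elsewhere it gives the labels' time for RNA sequencing of SKBR-3). Lapatinib inhibits the EGFR and HER2 kinases, JQ1 displaces BET bromodomain proteins from acetylated chromatin, and DMSO is the vehicle.

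Secretory breast epithelium is luminal: its cells release proteins into the duct from the apical face, and apocrine cells make a characteristic set of products. PIP (gross cystic disease fluid protein) and mammaglobin A (SCGB2A2) are used in pathology as markers of breast origin, and MUC1 is the mucin behind the CA 15-3 serum test. SCGB2A1 encodes mammaglobin B, and SCGB1D2 encodes lipophilin B, the partner of mammaglobin A. The others are a zinc-binding glycoprotein that promotes lipid breakdown (AZGP1), a small mucin of breast and skin glands (MUCL1), 2 iron- or siderophore-binding defence proteins of milk and mucosa (LTF and LCN2) and a secreted chaperone (CLU).

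The deposited values are normalised read counts, and 1 read was worth 0.471 to 0.766 units. The libraries held between 21420115 and 34112381 reads on genes. Differences below are log2 differences of value + 1, followed in brackets by an exact 95% interval that covers counting error only, since no group had a replicate. A fit of all 8 libraries, with the line as a block, is given after the counts. A member was counted as higher or lower when the difference was 2-fold or more. Markers of the luminal and HER2-amplified lineage were high in every library (summed values of 279286 to 670557 in SKBR-3 and 192780 to 222562 in BT474m1), although CDH1, which encodes E-cadherin, stayed between 2.58 and 15.1 in SKBR-3. The hormone receptor genes ESR1 and PGR summed to at most 19.9 in SKBR-3 and to at least 441 in BT474m1.

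The 250 bases before the annotated start (RefSeq, GRCh38.p14) are shown for the members with the largest drug differences, PIP, the neighbouring genes SCGB2A2 and SCGB1D2, and MUC1, because the study discusses FOXA1 and a forkhead motif. Capitals mark a match to GTAAACA or GTCAACA on either strand.
PIP (chr7:143131827-143132076, plus strand): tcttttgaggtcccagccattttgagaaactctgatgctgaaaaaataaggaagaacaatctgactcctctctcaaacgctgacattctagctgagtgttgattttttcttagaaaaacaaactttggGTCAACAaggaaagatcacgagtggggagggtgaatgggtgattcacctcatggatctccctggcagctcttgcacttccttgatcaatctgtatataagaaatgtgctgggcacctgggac
SCGB2A2 (chr11:62269908-62270157, plus strand): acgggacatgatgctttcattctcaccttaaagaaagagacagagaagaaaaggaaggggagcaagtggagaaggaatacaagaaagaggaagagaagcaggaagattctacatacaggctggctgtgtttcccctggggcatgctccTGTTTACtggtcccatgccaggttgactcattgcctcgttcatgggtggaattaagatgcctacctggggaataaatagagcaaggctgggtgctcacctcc
SCGB1D2 (chr11:62241989-62242238, plus strand): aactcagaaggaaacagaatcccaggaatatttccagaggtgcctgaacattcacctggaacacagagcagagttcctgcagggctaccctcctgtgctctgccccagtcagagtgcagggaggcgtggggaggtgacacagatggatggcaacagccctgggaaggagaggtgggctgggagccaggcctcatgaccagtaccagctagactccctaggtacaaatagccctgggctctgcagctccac
MUC1 (chr1:155192916-155193165, minus strand): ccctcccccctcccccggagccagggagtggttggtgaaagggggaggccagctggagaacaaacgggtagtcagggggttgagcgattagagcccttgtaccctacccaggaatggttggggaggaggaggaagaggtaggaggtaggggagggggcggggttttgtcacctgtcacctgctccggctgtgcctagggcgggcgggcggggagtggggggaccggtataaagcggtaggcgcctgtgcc

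GTCAACA stood 122 to 116 bases before the start of PIP on the gene's own strand, and GTAAACA stood 102 to 96 bases before the start of SCGB2A2 on the opposite strand. Of 27305 promoters, 2.98% held GTAAACA and 2.03% held GTCAACA in the same window. The 9 members in the table of promoters were searched on both strands, and each of these motifs was found in 1 of them. The STAT element TTCNNNGAA was found in PIP, 144 to 136 bases before the start, and in 6.78% of all promoters. The steroid receptor half-site AGAACA was found in PIP and MUC1 and in 12.4% of all promoters, and the estrogen receptor half-site AGGTCA in 0 of the 9 and in 12.1%. TATAAA, searched on the gene strand, lay 24 to 19 bases before the start of MUC1 and in 7.17% of all promoters. These matches describe letters in a window and show no binding. MUC1 and LTF have more than 1 entry, of which the first was used.

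In SKBR-3, 9 of 10 were at least 2-fold higher with lapatinib than with DMSO, from 2.48-fold for CLU to 18.1-fold for PIP, where 11.1% of all genes kept were. Of these, 8 were at least 2-fold lower when JQ1 was added to lapatinib, as 16.2% of all genes were. Both contrasts use the same lapatinib library, so genes picked as high in it are more likely to be lower in the second. The 16.2% covers all genes, not only those higher with lapatinib. In BT474m1, most secretory products were already high with DMSO, 3 of 10 were at least 2-fold higher with lapatinib (14% of all genes), and SCGB2A2, PIP and SCGB1D2 were 25.4-fold, 15.7-fold and 9.42-fold lower with JQ1 than with DMSO. JQ1 gave 5 members at least 2-fold lower in each line (11.8% of all genes in each). In SKBR-3 these included LTF, under the floor, and SCGB1D2, bounded only at 1.85-fold, and a pseudocount of 10 left 2. SCGB2A2 was 27.4-fold lower there, from 3 reads, a log2 difference of -4.20, or -2.40 with that pseudocount. MUC1 was 7.59-fold lower. Folds in this paragraph are ratios of the values themselves. CLU was higher with lapatinib in both lines with or without JQ1. In cultures sequenced in bulk, fewer cells making a product and less RNA of it per cell cannot be told apart.

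**Figure D1:**
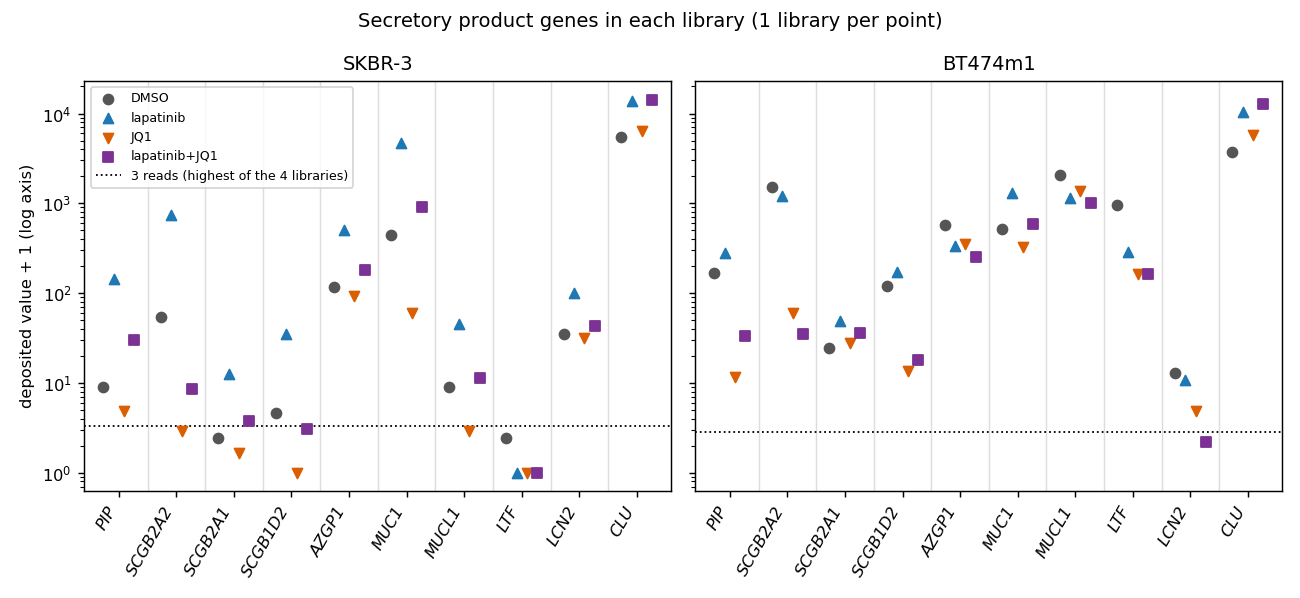
Deposited value + 1 (log axis) of each member in the 4 libraries of SKBR-3 (left) and BT474m1 (right), with 1 point per library and the value of 3 reads as a dotted line. In SKBR-3 the lapatinib library is the highest of 4 for 8 members, LTF is at or under 3 reads in all 4, and CLU is highest with both drugs. In BT474m1 SCGB2A2 falls on 2 levels, 1512 and 1208 without JQ1 against 59.4 and 34.4 with it.

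The DMSO libraries of the lines were compared first. Relative to SKBR-3, 7 of 10 members were at least 2-fold higher in BT474m1, and LCN2 was lower, beside 26.8% and 15.6% of the 14429 genes in those directions. The median difference was 3.79, against 0.21 over all genes. The widest gaps were LTF, at 960 in BT474m1 against 1.43 (2 reads) in SKBR-3, a difference of 8.63 (7.54 to 12.44), and MUCL1, at 2084 against 7.87, a difference of 7.88 (7.21 to 9.05). MUC1 differed little, at 510 against 444 (0.20, 0.05 to 0.34). Per kilobase of transcript, the quantity that can be compared between genes, MUCL1 was highest of the members in BT474m1 with DMSO at 4297 per kb, followed by SCGB2A2 at 2988 and CLU at 1361. In SKBR-3 with DMSO the order was CLU at 2010 per kb, MUC1 at 245 and SCGB2A2 at 105, and CLU was first in 4 of 4 libraries. Without CLU, the members together took 42.3 parts in 1e+06 of the summed values in SKBR-3 under DMSO, 379 under lapatinib, 10.9 under JQ1 and 70.5 under the combination. In BT474m1 the same shares were 371, 299.9, 143 and 134 parts.

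PIP, a small aspartyl-protease-like protein of apocrine fluids induced by prolactin, had SKBR-3 values of 7.87 (DMSO), 142 (lapatinib), 3.87 (JQ1) and 28.9 (both drugs). In BT474m1 its values were 167, 282, 10.6 and 32.7 in the same order. In both lines the lapatinib library was highest and the JQ1 library lowest. The difference between lapatinib and DMSO was 4.01 (3.30 to 5.20) in SKBR-3 and 0.75 (0.55 to 0.96) in BT474m1. JQ1 alone stood at -3.86 (-4.67 to -3.36) in BT474m1, whereas in SKBR-3, with 6 and 11 reads behind the values, its difference of -0.87 (-2.75 to 0.53) was not detectable at this depth. With both drugs PIP stood above DMSO in SKBR-3, at 1.75 (0.89 to 2.98), and below it in BT474m1, at -2.32 (-2.79 to -1.95).

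SCGB2A2, mammaglobin A, a small secretoglobin largely restricted to breast epithelium, had SKBR-3 values of 53.0, 731, 1.93 and 7.57 in that order, the third from 3 reads. Its BT474m1 values were 1512, 1208, 59.4 and 34.4. The lapatinib library of SKBR-3 stayed below both BT474m1 libraries without JQ1, and the libraries with JQ1 were the lowest of each line. Lapatinib against DMSO gave 3.76 (3.44 to 4.15) in SKBR-3 and -0.32 (-0.41 to -0.24) in BT474m1. JQ1 against DMSO gave -4.20 (-7.09 to -3.17) and -4.65 (-4.94 to -4.41), and both drugs against lapatinib gave -6.42 (-7.60 to -5.75) and -5.09 (-5.53 to -4.76). This last contrast was the lowest of the members in each line.

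SCGB1D2, lipophilin B, which forms a complex with mammaglobin A, had SKBR-3 values of 3.58, 33.7, 0 and 2.06 with DMSO, lapatinib, JQ1 and both drugs. In BT474m1 the values were 118, 172, 12.6 and 16.9. As for PIP, the lapatinib library was highest and the JQ1 library lowest in each line. In SKBR-3 the lapatinib difference was 2.92 (1.90 to 4.93), and the JQ1 library, with 0 reads against 5, was at least 1.85-fold lower, taking a floor of 3 reads in that library. In BT474m1 it was -3.14 (-3.88 to -2.65) with JQ1 and -2.74 (-3.41 to -2.25) with both drugs. Over the 8 libraries, with the mean of each line subtracted, SCGB2A2 and SCGB1D2 had the highest Pearson r of the 45 member pairs, 0.973, a description of libraries that share their line and drugs.

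SCGB2A1, mammaglobin B, lies at the same locus as the other mammaglobin genes and behaved differently in BT474m1. Its values there were 23.6, 48.2, 27.1 and 35.0, highest with lapatinib and lowest with DMSO. With lapatinib it was 2.04-fold higher, just past the limit of 2-fold (a log2 difference of 0.95 with median-of-ratios scaling and 0.79 with a pseudocount of 10, both under it), and JQ1 alone gave 0.19 (-0.38 to 0.78), which was not detectable at this depth, where SCGB2A2 and SCGB1D2 stood at -4.65 and -3.14. In SKBR-3 it had 2, 15, 1 and 4 reads (values of 1.43, 11.5, 0.644 and 2.75), so only the lapatinib library was above the floor by a clear margin. A long noncoding RNA gene overlaps SCGB2A1 and SCGB1D2 on the opposite strand, and whether the counting used strand is not stated.

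AZGP1, the zinc-alpha-2 glycoprotein, had SKBR-3 values of 115, 508, 92.1 and 181 and BT474m1 values of 572, 331, 355 and 250. Lapatinib was highest of 4 in SKBR-3 and DMSO was highest of 4 in BT474m1. The lapatinib difference was 2.14 (1.90 to 2.41) in SKBR-3 and -0.79 (-0.94 to -0.64) in BT474m1. The combination against lapatinib gave -1.48 (-1.70 to -1.28) for AZGP1 in SKBR-3, and -0.40 (-0.59 to -0.22) for it in BT474m1. Of the 50-base stretches of its transcript, 15.6% also occur in the pseudogene AZGP1P1, so reads may have been divided between them. For the other 9 members this share was 0%.

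MUC1, the transmembrane mucin that lines the apical surface and whose extracellular part is shed, had SKBR-3 values of 444 (DMSO), 4645 (lapatinib), 58.5 (JQ1) and 909 (both drugs). The BT474m1 values were 510, 1314, 324 and 581. The order was the same in both lines: JQ1 lowest, then DMSO, both drugs and lapatinib. The distances were wider in SKBR-3, where lapatinib gave 3.38 (3.27 to 3.51), JQ1 gave -2.90 (-3.26 to -2.60) and both drugs gave 1.03 (0.89 to 1.17). In BT474m1 the same contrasts gave 1.36 (1.26 to 1.47), -0.65 (-0.80 to -0.52) and 0.19 (0.06 to 0.31). In 5 libraries its value was not a whole number of reads within 0.05, and another protein-coding gene model overlaps it on the same strand.

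MUCL1, the small breast epithelial mucin, was low in SKBR-3, with 7.87, 44.4, 1.93 and 10.3. In BT474m1 it was abundant, with 2084, 1149, 1380 and 1012. Lapatinib gave 2.36 (1.55 to 3.58) in SKBR-3 and -0.86 (-0.94 to -0.78) in BT474m1. JQ1 gave values below 0 in both lines, -1.60 (-4.51 to -0.11) from 3 reads against 11, and -0.59 (-0.66 to -0.53). The BT474m1 values spanned little more than 2-fold, and both drugs against DMSO (-1.04, -1.12 to -0.96) was its only contrast there that was counted.

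LTF, lactoferrin, the iron-binding protein of milk and neutrophil granules, was measurable only in BT474m1. Its values there were 960, 289, 162 and 164, so that every treated library was below DMSO. The differences were -1.73 (-1.88 to -1.59), -2.56 (-2.74 to -2.40) and -2.54 (-2.74 to -2.37). Both drugs and JQ1 alone differed by 0.02 (-0.22 to 0.25). In SKBR-3 it had 2 reads with DMSO and 0 in the other libraries, and no change can be read there. The tallies of 2-fold differences below still count it, and say where.

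LCN2, lipocalin 2, which binds bacterial siderophores, was the one member higher in SKBR-3 than in BT474m1 by 2-fold or more with DMSO. Its SKBR-3 values were 34.4, 98.8, 30.9 and 42.0, and its BT474m1 values 11.8, 9.64, 3.86 and 1.17. Lapatinib gave 1.497 (1.03 to 2.03) in SKBR-3 and -0.27 (-1.29 to 0.67) in BT474m1, the latter not detectable at this depth. With both drugs in BT474m1 it had 2 reads against 25 with DMSO (-2.56, -6.46 to -1.33). Neutrophils also make LTF and LCN2. The 8 neutrophil markers summed to at most 5.01 in SKBR-3 and 7.07 in BT474m1, none reached 10, and 5 of 8 were at 0 in all libraries of each line.

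CLU, clusterin, a chaperone released by stressed and secretory cells, had the highest value per kilobase of the members in 6 of 8 libraries. It stood at 5525, 13679, 6439 and 14258 in SKBR-3 and at 3740, 10411, 5751 and 12779 in BT474m1. The libraries with lapatinib were above those without it in both lines. Lapatinib gave 1.31 (1.27 to 1.35) and 1.48 (1.44 to 1.52), and both drugs gave 1.37 (1.33 to 1.41) and 1.77 (1.74 to 1.81). JQ1 alone gave 0.22 (0.18 to 0.26) and 0.62 (0.58 to 0.66). Adding JQ1 to lapatinib gave 0.06 (0.03 to 0.09) in SKBR-3 and 0.30 (0.27 to 0.32) in BT474m1. CLU was the only member higher in both lines with both drugs than with lapatinib alone by an interval that left out 0. In SKBR-3 this small difference depended on the scaling. It came to 0.025 with equal totals, below that interval, and to 0.22 with median-of-ratios scaling, above it. Of the member pairs, LTF and CLU had the lowest r, -0.67.

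**Figure D2:**
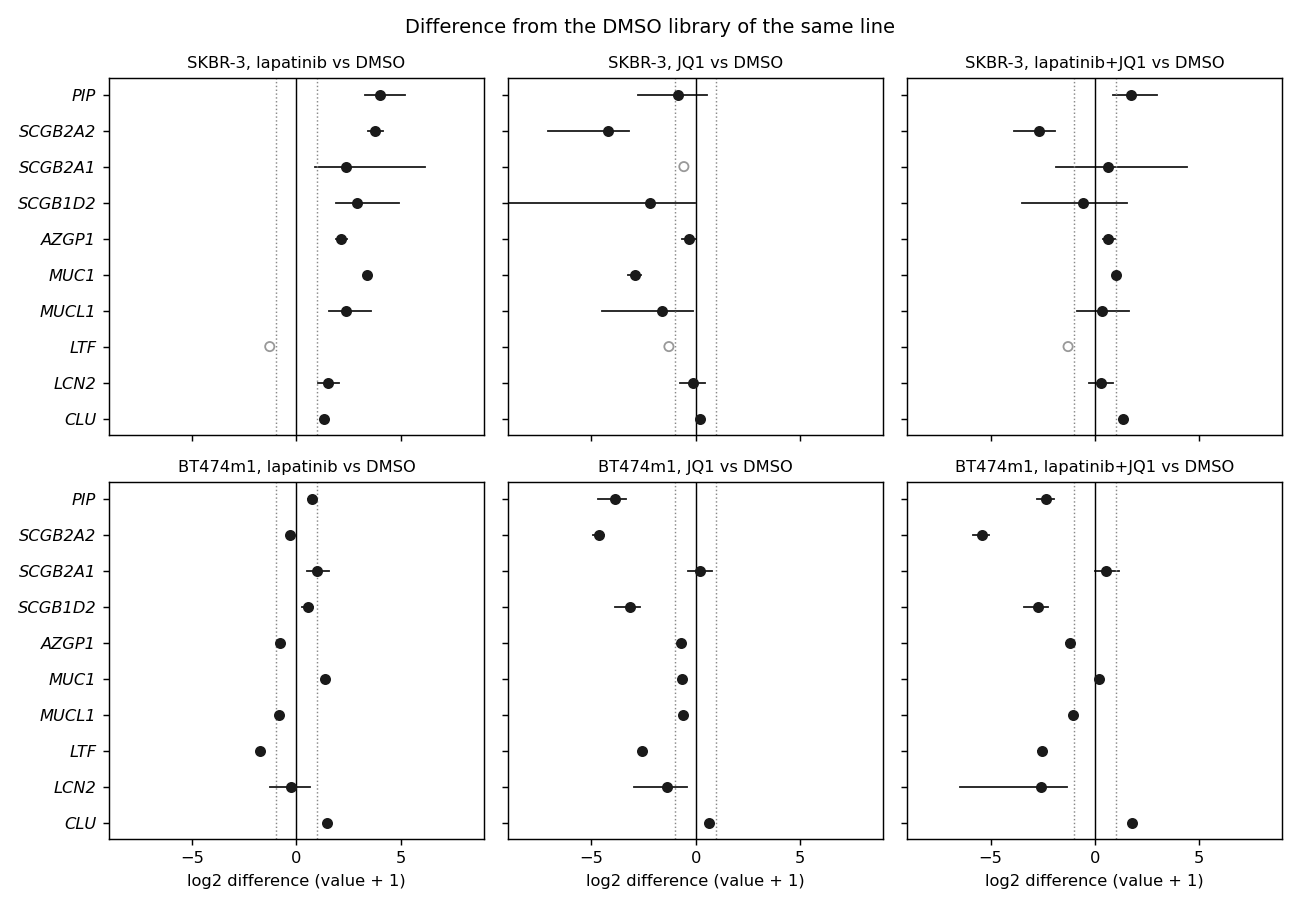
Log2 difference of value + 1 from the DMSO library of the same line, for lapatinib, JQ1 and both drugs in SKBR-3 (top) and BT474m1 (bottom). Bars are exact 95% counting intervals cut at the axis ends, open grey points have 3 reads or fewer in both libraries, and dotted lines mark 2-fold. The SKBR-3 lapatinib panel has 9 filled points to the right of 2-fold, while the BT474m1 panel has 3.

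Counted over the members, lapatinib against DMSO in SKBR-3 gave 9 higher and 1 lower, beside 11.1% and 9.44% of the 14429 genes. The lower one was LTF, at 2 reads and 0, and without it the 9 others were all higher with intervals that left out 0. With a pseudocount of 10 SCGB2A1, at 2 reads against 15, came to 0.91, which left 8. The median was 2.36, against 0.05 over all genes. In BT474m1 the counts were 3 higher (SCGB2A1, MUC1 and CLU) and 1 lower (LTF), beside 14% and 8.06%, with a median of 0.13 against 0.07. In BT474m1, 5 members had differences below 0, and in SKBR-3 only LTF had.

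JQ1 against DMSO gave 0 higher and 5 lower in each line. In SKBR-3 the lower ones were SCGB2A2, SCGB1D2, MUC1, MUCL1 and LTF, the last under the floor, beside 3.75% of genes higher and 11.8% lower, and the median was -1.07 against -0.08. With a pseudocount of 10 the count in SKBR-3 was 2, since MUCL1 came to -0.58, SCGB1D2 to -0.44 and LTF to -0.19, and the floor of 3 reads bounds SCGB1D2 only at 1.85-fold. In BT474m1 they were PIP, SCGB2A2, SCGB1D2, LTF and LCN2, beside 4.81% and 11.8%, and the median was -1.04 against -0.06. LCN2, at 8 reads against 25, came to -0.65 with a pseudocount of 10. SCGB2A2 was the member with the lowest difference in both lines.

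For both drugs against DMSO the counts differed between the lines, which was not tested, although CLU was higher and SCGB2A2 lower in both. In SKBR-3, PIP, MUC1 and CLU were higher and SCGB2A2 and LTF lower, beside 10.8% and 20.8%, with a median of 0.49 against -0.08. The MUC1 difference fell under 2-fold when libraries were scaled to equal totals (0.94). In BT474m1, CLU was higher and 7 members were lower (PIP, SCGB2A2, SCGB1D2, AZGP1, MUCL1, LTF and LCN2), beside 14.2% and 15.3%, with a median of -1.76 against 0.00. With a pseudocount of 10 LCN2, at 2 reads against 25, came to -0.96. Without LTF the SKBR-3 count was 3 higher and 1 lower.

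JQ1 added to lapatinib, the comparison of both drugs with lapatinib alone, gave 0 higher in either line. In SKBR-3, 8 of 10 members were lower, all but LTF and CLU, beside 3.22% of genes higher and 16.2% lower, and the median was -1.87 against -0.11. In BT474m1, 5 of 10 were lower (PIP, SCGB2A2, SCGB1D2, MUC1 and LCN2), beside 5.2% and 12.5%, and the median was -0.996 against -0.02. A pseudocount of 10 took SCGB2A1 in SKBR-3 to -0.75 and LCN2 in BT474m1 to -0.81. Lapatinib added to JQ1 gave 7 higher and 0 lower in SKBR-3, beside 9.79% and 12.3%. Of these 7, SCGB1D2 had 3 reads against 0 and the interval of SCGB2A1 included 0, which left 5. With a pseudocount of 10 the count was 3, with MUCL1 at 0.77 and SCGB2A2, at 11 reads against 3, at 0.56. In BT474m1 it gave 2 higher (PIP and CLU) and 1 lower (LCN2, 2 reads against 8, with an interval from -5.00 to 0.60), beside 12.4% and 7.27%. These contrasts share libraries with those above.

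**Figure D3:**
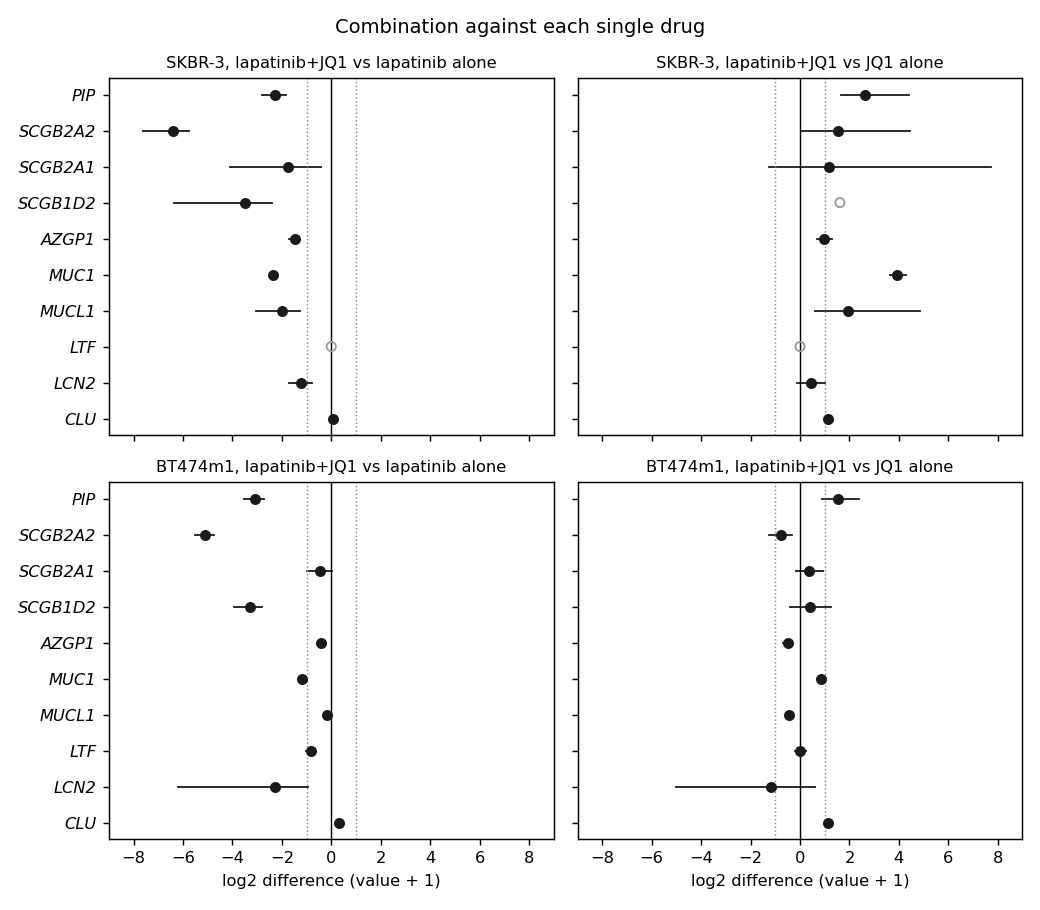
Log2 difference of value + 1 between the lapatinib+JQ1 library and each single-drug library, in SKBR-3 (top) and BT474m1 (bottom), drawn as in the plot of differences from DMSO. Against lapatinib the SKBR-3 points run from -6.42 for SCGB2A2 to 0.06 for CLU, and against JQ1 the highest is MUC1 at 3.93.

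The drug differences shared by the lines were tested with limma on all 14429 genes, with line and treatment as terms, 3 residual degrees of freedom and Benjamini-Hochberg adjusted p-values. The fit takes a disagreement between the lines as error. CLU passed for lapatinib against DMSO (1.39, SE 0.17, adjusted p = 0.0125), for both drugs against DMSO (1.57, SE 0.17, adjusted p = 0.00371) and for both drugs against JQ1 (1.15, SE 0.17, adjusted p = 0.0191). SCGB2A2 passed for both drugs against DMSO (-4.04, SE 0.95, adjusted p = 0.0304), and LTF, which rests on BT474m1, did not (-1.91, SE 0.55, adjusted p = 0.0527). The genes called in these contrasts were 1.73% higher and 2.92% lower for lapatinib, 7.52% and 10.9% for both drugs, and 1.47% and 2.79% for both drugs against JQ1.

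No member passed for JQ1 against DMSO, where 0.0139% and 0.0416% of genes did in limma, or for both drugs against lapatinib, where 0.0347% and 0.215% did. At an unadjusted p under 0.05, 1 member was higher and 4 were lower with JQ1, beside 5.32% and 9.93% of genes at that threshold. For both drugs against lapatinib 0 were higher and 4 lower, beside 4.95% and 12.4%. The lowest of these was SCGB2A2 for both drugs against lapatinib (-5.76, SE 0.95, adjusted p = 0.0607 in limma), below 0 in both lines. The lapatinib difference of MUC1, above 0 in both lines, had an adjusted p of 0.157 in limma (2.37, SE 0.85).

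The difference seen with the combination was next compared with what the single-drug differences add up to. In SKBR-3 it lay at least 2-fold below the sum for 6 members, beside 7.58% of genes, and above it for LTF alone, beside 3.9%. The LTF value rests on 2 reads with DMSO and 0 in the other libraries, and nothing can be read from it. Of the 6, LCN2 came to between -0.996 and -0.95 under the other scalings and a pseudocount of 10, and SCGB2A1 to -0.65 with that pseudocount, all under 2-fold. The departure of SCGB2A2 was -2.22, with 3 reads in the JQ1 library. That of SCGB1D2 was -1.31, with 0 reads in the JQ1 library, so its JQ1 difference is set by the pseudocount. Of the 5 members with at least 5 reads in all 4 libraries, an approximate counting interval left out 0 for AZGP1 (-1.17, -1.56 to -0.79), LCN2 (-1.07, -1.79 to -0.34), MUC1 (0.55, 0.22 to 0.88) and CLU (-0.16, -0.21 to -0.11), and included 0 for PIP (-1.40, -2.91 to 0.12). The CLU departure was -0.05 with equal totals and -0.09 with median-of-ratios scaling, both closer to no departure than its interval. In BT474m1 LTF lay 1.75 above the sum (1.48 to 2.02), beside 4.72% of genes at least 2-fold above, and 0 members lay 2-fold below, beside 4.73%. The BT474m1 values of the remaining members ran from -0.90 for LCN2, with 2 reads under both drugs, to 0.78 (0.05 to 1.52) for PIP. Intervals there also left out 0 for AZGP1 (0.28, 0.06 to 0.51), MUC1 (-0.52, -0.70 to -0.35), MUCL1 (0.41, 0.30 to 0.53) and CLU (-0.32, -0.37 to -0.27). SCGB2A2 and SCGB1D2 stood nearer the sum than 2-fold, at -0.45 and -0.13, with intervals that included 0.

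**Figure D4:**
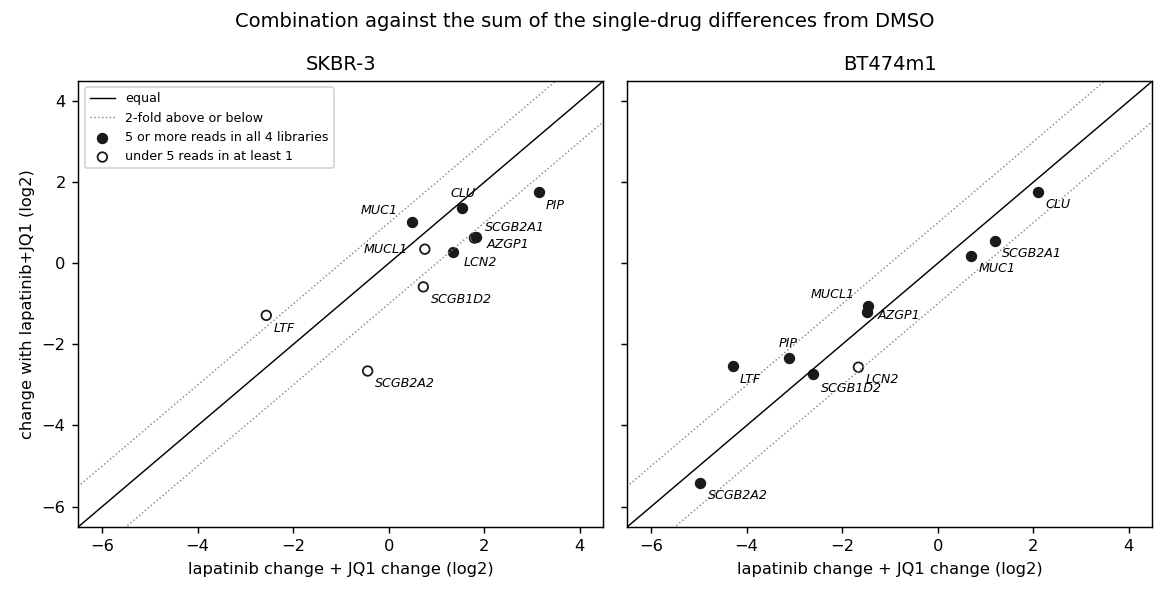
Log2 difference from DMSO with both drugs (vertical) against the sum of the lapatinib and JQ1 differences (horizontal) for each member, with the line of equality and dotted lines 2-fold away. Open points have under 5 reads in at least 1 of the 4 libraries. LTF in BT474m1 lies 1.75 above the line, and SCGB2A2 in SKBR-3 departs by -2.22 as an open point.

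Genes related to the members were read from lists chosen for this purpose, and the percentages over all genes given above apply to their counts as well. None of the 7 other secretoglobins found in the tables reached a value of 10, and their highest was 1.20. Of 20 milk and mammary secretion genes, 8 were kept. The caseins CSN1S1, CSN2 and CSN3 and the alpha-lactalbumin gene LALBA had at most 0.766 in any library. With lapatinib 0 of these 8 were higher in either line, and 1 and 4 were lower in SKBR-3 and BT474m1. PLIN2, a coat protein of lipid droplets, was the one with 100 or more in both lines that differed 2-fold the same way in both, at -4.75 (SKBR-3) and -1.10 (BT474m1) with both drugs.

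Of 6 genes kept from the list of other mucins, which includes the adhesion molecule MCAM, 3 were higher and 2 lower with lapatinib in SKBR-3. In BT474m1, 2 were higher and 1 lower. The lower call of MUC6 in SKBR-3 rests on 0 reads against 5, and the higher call of MUC16 in BT474m1 on 4 against 1. MUC5B, a gel-forming mucin, stood against DMSO at -1.43 and -1.47 with lapatinib, at -1.18 and -1.51 with JQ1 and at -2.66 and -2.74 with both drugs (SKBR-3, then BT474m1). MUC5B was therefore lower with lapatinib in both lines, where MUC1 was higher. MUC20 was also higher with lapatinib in both lines, by 1.60 and 2.27, and MUC15 and MUC16 were higher in SKBR-3, by 2.87 and 2.26. Among 14 kept luminal trefoil, anterior gradient and antiprotease genes, lapatinib gave 8 higher and 2 lower in BT474m1 (median 1.38). In SKBR-3 it gave 2 higher and 1 lower (median 0.00). Both drugs against lapatinib gave 1 higher and 10 lower in BT474m1 (median -3.80), and 0 higher and 7 lower in SKBR-3 (median -1.01). SERPINA1, which encodes the antiprotease alpha-1 antitrypsin, was higher with lapatinib in both lines, by 2.69 and 1.44. AGR2, a disulfide isomerase needed for mucin folding, stood at -1.17 and -4.77 with both drugs, and at 0.23 and -1.08 with lapatinib alone.

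Of 20 apocrine markers kept, 5 were higher and 1 lower with lapatinib in SKBR-3, and 4 higher and 5 lower in BT474m1. With JQ1, 3 were higher and 9 lower in SKBR-3, and 2 higher and 7 lower in BT474m1. DHRS2, higher with JQ1 in SKBR-3, went from 56701.5 to 255026 there. ABCC11, the transporter that determines apocrine secretion in skin, was higher with lapatinib by 2.73 and 1.60. GGT1, a gamma-glutamyltransferase, stood at -2.17 and -2.01 with JQ1, and CRAT, carnitine acetyltransferase, at -2.11 and -1.08. Of 15 innate defence genes kept, JQ1 gave 6 higher and 3 lower in SKBR-3 and 0 higher and 6 lower in BT474m1. Lapatinib gave 3 higher and 2 lower in SKBR-3 (median 0.09), and 2 higher and 5 lower in BT474m1 (median -0.68). BPIFB1, a secreted lipid-binding defence protein, was higher with lapatinib by 2.78 and 1.42. The member LCN2 was higher by 1.497 in SKBR-3, against -0.27 in BT474m1.

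**Figure D5:**
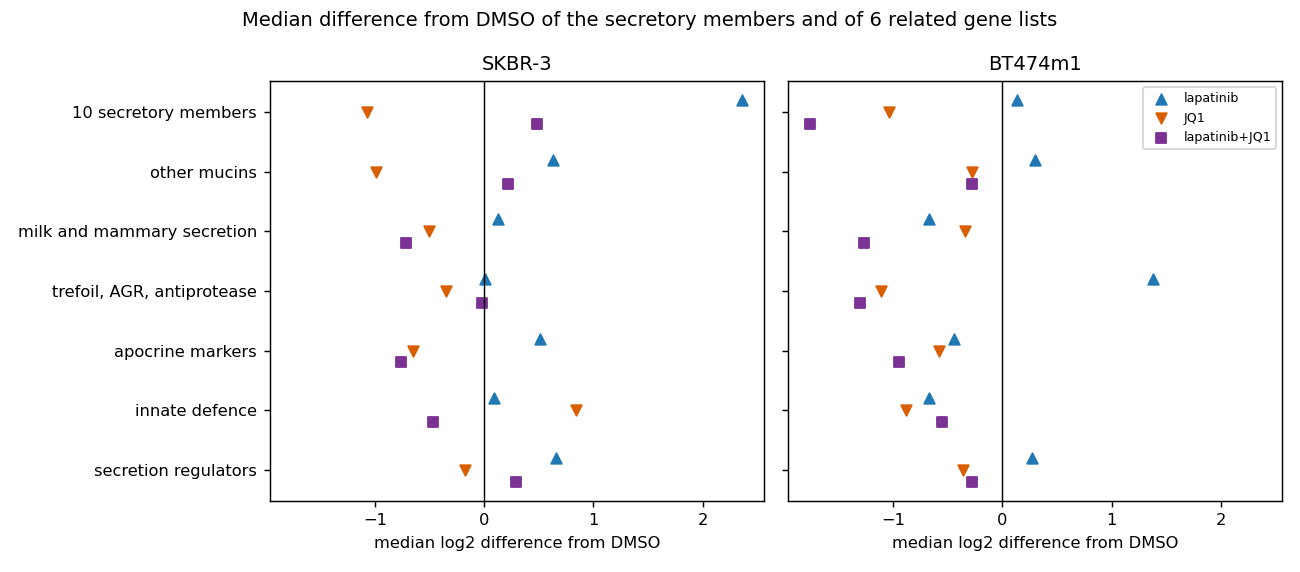
Median log2 difference from DMSO of the 10 members and of 6 related lists (genes kept) with lapatinib, JQ1 and both drugs in each line, 1 point per median. The members have the highest lapatinib median in SKBR-3 (2.36), and in BT474m1 that place is taken by the trefoil, anterior gradient and antiprotease list (1.38) with the members at 0.13. The order is a description only, since members and lists were chosen with earlier results of these data known.

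Among 18 regulators of mammary secretion, all kept, 4 were higher and 0 lower with lapatinib in SKBR-3, and 5 higher and 1 lower in BT474m1. PRLR, the prolactin receptor, was expressed in both lines, at 4054, 5948, 2619 and 3172 in SKBR-3 and 16113, 42749, 10231 and 13986 in BT474m1 (DMSO, lapatinib, JQ1, both drugs). Of the STAT5 genes that carry the prolactin signal, STAT5A was at most 86.7 in SKBR-3 and 5.23 in BT474m1, and STAT5B ranged from 1364 to 1810 and from 329.9 to 681. ELF5, a factor of the secretory alveolar lineage, went from 126 with DMSO to 253 with lapatinib in SKBR-3. In BT474m1 it went from 300.3 to 700.0. ELF3, an epithelial ETS factor, was higher with both drugs by 1.96 and 1.56.

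FOXA1, a pioneer factor, stood at 0.60 with lapatinib and 0.91 with both drugs in SKBR-3 and at -0.53 and -0.35 in BT474m1. SPDEF, a factor of secretory cells, stood at 0.71 and 0.59 in SKBR-3 and at -0.42 and -0.93 in BT474m1, and GATA3, the luminal factor, at 0.92 and 1.20 in SKBR-3 and at 0.00 and -0.44 in BT474m1. In BT474m1, ESR1 stood at 1.12, -2.14 and -1.75 for lapatinib, JQ1 and the combination, and PGR at 3.86, -1.77 and -1.56. In SKBR-3 ESR1 never passed 16.9 and PGR never passed 3.06.

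The genes whose pattern was closest to a member were found by Pearson r over the 8 libraries after the line means were subtracted, among 9841 genes with 100 or more in both lines, for the 5 members that pass that level. For PIP they were MBD5 (0.995), PPP1R13L (0.994) and C1orf198 (0.991). For SCGB2A2 they were AGPAT3 (0.993), DECR1 (0.991) and ANO1 (0.989), of which ANO1, a calcium-activated chloride channel, went from 1309 with DMSO to 3247 with lapatinib and 293 with JQ1 in SKBR-3. For AZGP1 they were ZNF821 (0.975), MCCC2 (0.974) and GALNT12 (0.958), a transferase that starts mucin-type glycosylation. For MUC1 they were DCP1B, SNX21 and ZNF329 (each 0.990). For CLU they were SIAE (0.999), GLI4 (0.997) and FLJ39653 (0.996), and SIAE, a sialic acid esterase, had 346, 889, 393 and 940 in SKBR-3 and 234, 706, 379 and 924 in BT474m1. The libraries share line, treatment and scaling, and the r values are descriptions over 8 points.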

How the data were processed

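RNA of 8 cultures of SKBR-3 and BT474m1 cells was analysed from 8 deposited tables, 1 per library. They hold a signal for each gene, made by the authors from RSEM read estimates by scaling each library to an upper quartile of about 1000 (genes at 0 left out). The submitters' processing notes also name hg19, Picard 1.88, SAMtools 1.2, R 3.2.2, DESeq and DESeq2 1.12.3, with no roles. The study's methods name hg38, STAR and Salmon, so the aligner of these tables is uncertain, and no coordinate was converted. The labels name both a TruSeq RNA v2 and a KAPA Stranded kit, and strand use in counting is not stated.

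The members and the related lists were chosen with earlier results of these data known. The value of 1 read was recovered as the common step between values, and 85.0% to 86.4% of values above 0 were whole reads within 0.05. Fractional values were rounded for intervals. The filter asked for a value of at least 10 in any of the 8 libraries and left 14429 genes (6102 removed). Of the table rows, 29 (0.141%) carry no gene symbol. Differences are of log2(value + 1), which understates changes of low genes. A call was 2-fold or more. Intervals are exact 95% Clopper-Pearson intervals on the share of reads of 1 library of a pair, and those of the departure from the sum use a normal approximation. Intervals and the floor of 3 reads (1.41 to 2.30 units) cover counting error only, since PCR copies were not marked by molecular identifiers. With 1 library per group no difference within a line could be tested. Drug differences shared by the lines were tested with limma 3.58.1 (R 4.3.3) on log2(value + 1), with line as a block and a trend in the variance, a fit chosen after seeing the data.

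Named genes were all members; up to 3 genes per list with the largest smaller change of the 2 lines among those changed 2-fold the same way in both with a value of 100 or more in each; 8 regulators (ESR1, PGR, PRLR, STAT5A, ELF5, GATA3, FOXA1 and SPDEF); and the 3 most similar genes. The result for 1 further regulator is not reported here. Other genes given with values were chosen after their values were seen. Entrez identifiers matched RefSeq for 20372 of 20531 genes. Promoters (RefSeq, GRCh38.p14) were matched for 9 of 10 members. Transcript lengths are those of GENCODE 44 canonical transcripts. Software was matplotlib 3.10.9, scipy 1.17.1, pandas 2.3.3 and numpy 2.4.6 under Python 3.11.15, and the method was tested on simulated data. Alternatives were 2 other scalings (equal totals; median of ratios), a pseudocount of 10, a filter at 100 or none, a call at 1.5-fold and a call that also asks for an interval without 0. Leaving out members at or under 3 reads in both libraries was chosen after seeing the data.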

Additional observations from a re-analysis of the deposited data

Results flagged for a closer look

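PIP with both drugs moved in opposite directions in the 2 lines: against DMSO the log2 difference was 1.75 in SKBR-3, from 7.87 to 28.9, and -2.32 in BT474m1, from 167 to 32.7. With 1 library per line and treatment the difference between the lines was not tested. The values with both drugs were close to each other, 28.9 and 32.7, while those with DMSO were 21.3-fold apart.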

How the results depend on the processing

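Scaling to equal totals, median-of-ratios scaling and leaving out the filter moved no member count by more than 1.5 times and no member median beyond its limits, and no 2-fold member difference changed sign under any alternative. Scaling moved the median of all genes by up to -0.15 (BT474m1 against SKBR-3 with DMSO, median of ratios) and -0.14 (JQ1 in SKBR-3, equal totals). A pseudocount of 10 gave medians of 2.73 for BT474m1 against SKBR-3 with DMSO, -1.10 for both drugs against DMSO and -0.80 for both drugs against lapatinib in BT474m1. In SKBR-3 it gave 3 higher for both drugs against JQ1, 0 above the sum, 2 lower with JQ1, 1 lower with both drugs and 0 lower with lapatinib. In BT474m1 it gave 0 lower for both drugs against JQ1, as did the filter at 100 and the call that asks for an interval without 0. The filter at 100 left 0 lower in BT474m1 against SKBR-3, since LCN2 was removed. The call with intervals, and the count without members at or under 3 reads in both libraries, gave 0 lower with lapatinib and 1 lower with both drugs in SKBR-3. Of the members named at 2-fold, MUC1 with both drugs in SKBR-3 fell to 0.94 with equal totals, SCGB2A1 with lapatinib in BT474m1 to 0.95 with median-of-ratios scaling, and the departure of LCN2 in SKBR-3 to -0.996 and -0.96 with those scalings, while AZGP1 for both drugs against JQ1 in SKBR-3 reached 1.02 with either. At 1.5-fold, 5 members were higher with both drugs in SKBR-3. In BT474m1 that call gave 1 higher and 8 lower with JQ1, 3 lower with lapatinib, 2 lower for both drugs against JQ1, and 2 above and 2 below the sum. The shares of all genes given in the results are for 2-fold under the main settings. They do not apply to counts at 1.5-fold or with a pseudocount of 10. With a pseudocount of 10, the calls of LCN2 in BT474m1 ended for JQ1 (-0.65), both drugs (-0.96) and both drugs against lapatinib (-0.81), as did those of SCGB2A1 in SKBR-3 for lapatinib (0.91) and both drugs against lapatinib (-0.75), those of MUCL1 (-0.58) and SCGB1D2 (-0.44) in SKBR-3 for JQ1, those of MUCL1 (0.77) and SCGB2A2 (0.56) in SKBR-3 for both drugs against JQ1, and the departures of LCN2 (-0.95) and SCGB2A1 (-0.65) in SKBR-3. Of single-member differences with an interval, 330 of 366 stayed within it. The 36 others were 17 with the pseudocount of 10, spread over 7 members, and 19 of CLU and MUC1 with other scalings. No interval was available for 24. For the related lists, 171 of 1170 alternative counts and medians moved beyond their limits, 70 of them with the filter at 100 and 56 with the pseudocount of 10. Depth limits PIP, SCGB2A2, SCGB2A1, SCGB1D2, MUCL1 and LTF in SKBR-3 and LCN2 in BT474m1. The spread between cultures is unknown.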
